A study of Mus musculus with 24 samples.

Results

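Brown fat and inguinal fat of wildtype mice were compared gene by gene. The comparison used 6 of the series' 24 libraries, chosen by their labels: 3 of dorsal brown adipose tissue (BAT) and 3 of inguinal adipose tissue (IAT), all from female wildtype (WT) mice aged 12 weeks. The series also holds brain and liver, and mice in which Prxl2a, which encodes a peroxiredoxin-like protein, was knocked out (KO). Blood was washed out by PBS perfusion, the fat was snap-frozen, and messenger RNA of whole tissue was sequenced. The labels describe 3 mice per group but do not say whether the BAT and IAT libraries come from the same mice, so p-values measure the spread between these libraries. The 3 KO BAT and 3 KO IAT libraries gave the same depot comparison in other animals of the series and are set beside it.

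Brown fat burns fuel for heat. Its adipocytes hold many small lipid droplets and densely packed mitochondria, in which uncoupling protein 1 (UCP1) lets protons bypass ATP synthase, under the control of sympathetic noradrenaline. Inguinal fat is a subcutaneous white depot that stores triglyceride and secretes leptin, can acquire UCP1-bearing beige adipocytes in the cold, and in female mice surrounds a mammary gland and a lymph node. In bulk tissue, fewer cells of a type and less RNA per cell cannot be told apart, so every difference below is one of whole-tissue RNA.

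Rounded expected counts summed to 12948147, 12390585 and 12327448 in the BAT libraries and to 16860982, 17323705 and 17291036 in the IAT libraries. Levels are given as CPM, counts scaled to the library's TMM-adjusted size, when libraries are compared, and as the authors' TPM, which also corrects for transcript length, when genes are compared. Replicates correlated at Pearson's r of 0.956 to 0.986 in BAT and 0.942 to 0.971 in IAT across genes, against 0.795 to 0.880 between depots. Skeletal muscle transcripts set 3 libraries apart. Summed over the list of muscle genes they reached 2391, 12.4 and 30.9 CPM in the BAT libraries, against 1060, 3714 and 9.75 CPM in the IAT libraries. Acta1, skeletal muscle actin, had 525, 0.174 and 3.98 CPM in BAT, against 191, 822 and 2.44 CPM in IAT. Of 22 tested muscle genes 0 were called by edgeR, 0 by DESeq2 and 0 by limma-voom, 0 had an unadjusted p below 0.05 in edgeR, and their log2 fold changes ran from -2.45 to 4.29. With the list's own mean level as a covariate, Mb (2.27, edgeR adjusted p = 0.0073) and Myh1 (0.93, 0.00351) were called higher in BAT and Actn3 (-1.80, 0.00181) lower. Actn3 also passed without BAT replicate 1 (-7.66, edgeR adjusted p = 0.0425), and Tnnt1 in 1 fit of the 12 WT libraries of 4 tissues (4.29, 0.0432). Each result below was therefore also computed in BAT replicates 2 and 3 against IAT replicate 3, where a lone IAT library is assumed to vary like the others.

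The depots differed at most of the genes measured. Of 13751 genes tested, 8085 were called at an edgeR quasi-likelihood adjusted p below 0.05, which is 58.8%. BAT was higher at 3876 (28.2%) and lower at 4209 (30.6%). Libraries of the depots did not overlap at 68.7% of genes. At a further limit of 2-fold, BAT was higher at 1584 (11.5%) and lower at 2720 (19.8%). Because the background is this dense, the counts in gene lists below are to be read against 28.2% and 30.6%, and the list medians against the median log2 fold change of all genes tested, -0.02. In the libraries low in muscle transcripts, 7994 of the 8085 called genes had a log2 fold change of the same sign and no more than 2 times smaller. For 8037 of the 8085 the depots do not overlap, which fixes the sign in any subset of these libraries. Lack of overlap at a called gene below is therefore a description and no further support for its call. The split depended on scaling: 47.9% of calls were higher in BAT with TMM, 39.2% with upper-quartile scaling, 31.0% with library totals alone and 22.5% on log2(TPM + 1), where the median of all genes was -0.02, -0.14, -0.28 and -0.38. These shifts ran downward, so that under another scaling some positive log2 fold changes lost their call or turned negative and some negative ones gained a call. List counts and medians under another scaling are therefore to be read against all genes under that same scaling. With library totals, 2546 of 13751 genes were higher in BAT and 5659 lower. On log2(TPM + 1), 1911 of 12701 were higher and 6575 lower.

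**Figure D1:**
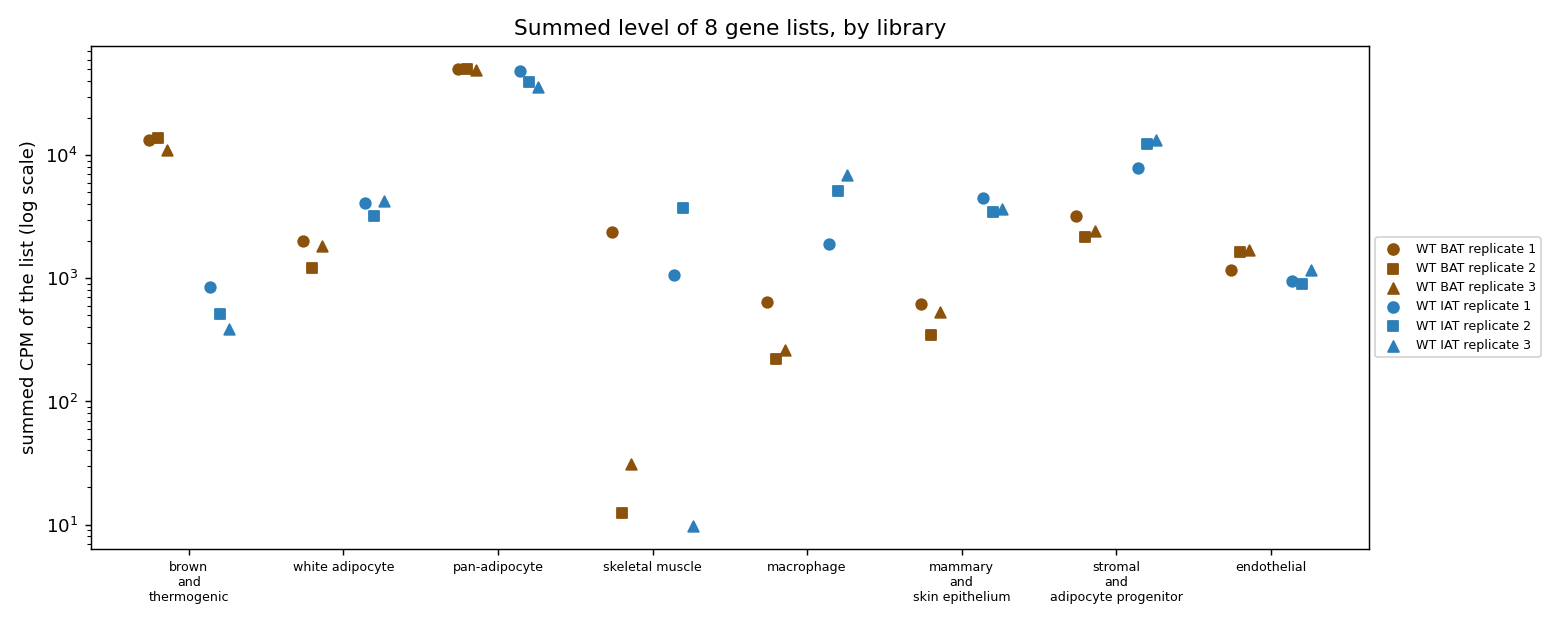
Summed CPM (log axis) of 8 gene lists in each library, with the 3 WT BAT libraries in brown left of the 3 WT IAT libraries in blue. Brown and thermogenic genes sum to 11066 CPM or more in BAT and to at most 845 CPM in IAT, while the skeletal muscle sum is high in 1 BAT and 2 IAT libraries.

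The tissue labels were checked against adipocyte markers first. Adipoq, which encodes adiponectin, had 1561, 1579.9 and 1745 CPM in BAT, against 2485, 2059 and 1822 CPM in IAT, and its log2 fold change of -0.38 did not pass (SE 0.16, edgeR adjusted p = 0.0806). It passed, lower in BAT, with DESeq2 (-0.39, adjusted p = 0.0229) and without IAT replicate 3 (-0.48, edgeR adjusted p = 0.0487). So it did with library totals (-0.63, edgeR adjusted p = 0.011), upper-quartile scaling (-0.50, edgeR adjusted p = 0.042) and on log2(TPM + 1) (-0.79, limma adjusted p = 0.00564). Plin1, the coat protein of the adipocyte lipid droplet, differed by 0.10 (edgeR adjusted p = 0.574), with 701, 589 and 671 CPM in BAT, against 701, 596 and 531 CPM in IAT. Both depots therefore carried these adipocyte transcripts at high level. Of 17 tested pan-adipocyte genes, 6 were higher in BAT, 1 was lower and 10 were not called, with a median log2 fold change of 0.35 that was 0.08 with library totals and -0.05 on log2(TPM + 1), where 4 were higher and 4 lower. The most abundant transcript of both depots was Fabp4, the adipocyte fatty acid-binding protein, at a mean of 35952 TPM in BAT and 30939 TPM in IAT. Behind it stood Scd1, Cox6b1 and Cox8b in BAT, and Scd1, Cfd and Mup22 in IAT. Scd1 desaturates fatty acids, Cox6b1 and Cox8b are subunits of cytochrome c oxidase, Cfd is the secreted protease adipsin, and Mup22 belongs to the major urinary proteins, whose near-identical copies can exchange reads.

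Brown and thermogenic genes had the highest median of the 39 gene lists examined. Of 29 tested brown and thermogenic genes, 26 were higher in BAT, 2 were lower and 1 was not called, with a median log2 fold change of 4.16. Without the libraries rich in muscle transcripts 26 were higher and 1 was lower. Ucp1 (gene 22227, GRCm38.p6 chromosome 8, 83290348 to 83298456) had 4015, 4199 and 2933 CPM in BAT, against 0.972, 0.303 and 0 CPM in IAT. Nearly all of its reads lay in BAT, and the depots did not overlap. The log2 fold change was 13.10 (SE 0.85, edgeR adjusted p = 0.00014), and 14.08 between the KO depots. In TPM, Ucp1 averaged 3392 in BAT and 0.523 in IAT.

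The RefSeq promoter of Ucp1 in GRCm38.p6, from 250 bases before its start to 50 after it, is shown because this gene marks the depot. It lies at chr8:83290098-83290397 on the plus strand, read 5′ to 3′.
Ucp1: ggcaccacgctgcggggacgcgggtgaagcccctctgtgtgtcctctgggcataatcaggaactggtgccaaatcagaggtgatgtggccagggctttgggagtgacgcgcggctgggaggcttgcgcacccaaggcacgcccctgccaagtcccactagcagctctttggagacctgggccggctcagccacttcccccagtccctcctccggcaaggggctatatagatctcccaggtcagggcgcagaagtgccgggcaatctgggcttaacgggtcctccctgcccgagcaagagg
This stretch was 64.7% G and C and held 15 CpG dinucleotides, against a median of 7 over the 32851 promoters of the table. None of 5 searched motifs, listed with the oxidase promoters below, occurred in it on either strand, so no letters are in capitals. The enhancer of Ucp1, where most known control of the gene acts, lies outside this window and was not analysed here.

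Several genes of fatty acid handling were also far higher in BAT. Slc27a2, a very long-chain acyl-CoA synthetase, had 184, 263 and 272 CPM in BAT, against 0.172, 0.151 and 0.106 CPM in IAT (log2 fold change 10.63, SE 0.28, edgeR adjusted p = 3.02e-05). Fabp3, a fatty acid-binding protein of oxidative tissues, had 430.4, 547 and 547 CPM in BAT, against 1.54, 4.34 and 0.159 CPM in IAT (log2 fold change 7.96, edgeR adjusted p = 0.000759). Fabp3 is also expressed in muscle. BAT replicate 1, rich in muscle transcripts, was the lowest of the 3 BAT libraries, while the IAT libraries ranked as their muscle sums did. In the libraries low in muscle transcripts the log2 fold change of Fabp3 was 11.68. Acot11, an acyl-CoA thioesterase of brown fat, was higher in BAT by 5.17 on the log2 scale. Pank1, which starts coenzyme A synthesis, was higher by 5.05, and Otop1, a proton channel, by 5.0.

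Dio2, the deiodinase that makes active thyroid hormone inside the cell, had 133, 63.6 and 49.8 CPM in BAT, against 0.858, 0.808 and 0.742 CPM in IAT. BAT replicate 1 was the highest, and every BAT library exceeded every IAT library by far (log2 fold change 6.66, SE 0.49, edgeR adjusted p = 0.000174). Kng2, a kininogen, had 199, 162 and 169 CPM in BAT, against 2.46, 1.92 and 1.86 CPM in IAT (log2 fold change 6.41, edgeR adjusted p = 3.02e-05). Cpn2, a subunit of the kinin-cleaving carboxypeptidase N, was higher in BAT by 7.16 on the log2 scale, with 74.2, 63.6 and 50.2 CPM in BAT, against 0.686, 0.404 and 0.212 CPM in IAT. Both kinin-related transcripts were thus at 2.46 CPM or below in every IAT library. Car14, a carbonic anhydrase, differed by 7.05, and Cyp2b10 by 8.77, although close Cyp2b copies could share its reads. Ntrk3, a neurotrophin receptor, had 478, 584 and 529 CPM in BAT, against 51.2, 27.9 and 10.2 CPM in IAT (log2 fold change 4.16, edgeR adjusted p = 0.00148).

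Transcription factors and coregulators of the brown and thermogenic list went both ways, with more of them higher in BAT than lower. Ppara, the receptor that drives fat oxidation genes, had 369, 419 and 284 CPM in BAT, against 18.9, 12.8 and 9.38 CPM in IAT (log2 fold change 4.71, SE 0.31, edgeR adjusted p = 0.000148). Ppargc1a, the coactivator PGC-1alpha, had 43.7, 43.2 and 44.1 CPM in BAT, against 10.01, 6.11 and 3.87 CPM in IAT (log2 fold change 2.72). The determination factors gave smaller log2 fold changes. Prdm16 had 41.01, 24.8 and 41.8 CPM in BAT, against 11.4, 7.62 and 4.88 CPM in IAT (log2 fold change 2.17, edgeR adjusted p = 0.00253), and Ebf2 was higher by 1.23 (edgeR adjusted p = 0.00116). In all 4 genes the BAT libraries lay above the IAT libraries.

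Both brown-list genes called lower in BAT are regulators. Cited1, a transcriptional coregulator used as a marker of beige adipocytes, had 0.175, 1.22 and 0.606 CPM in BAT, against 37.5, 17.97 and 15.6 CPM in IAT (log2 fold change -5.14, SE 0.62, edgeR adjusted p = 0.000908). The depots did not overlap, and the KO depots gave -5.55. Within each depot, Cited1 ranked the libraries in the same order as the epithelial marker Krt18 (below). Csn3, another marker of the epithelial list, ranked the IAT libraries in the reverse order. Ucp1 was at most 0.972 CPM in the same IAT libraries. Which cells carried Cited1 was not tested. Zfp516, a zinc finger partner of PRDM16, differed by -0.37 (edgeR adjusted p = 0.0448), a call lost when any 1 library other than IAT replicate 3 was left out, with values of -0.28 to -0.43. Nrg4, a neuregulin secreted by brown fat, was not called (0.78, edgeR adjusted p = 0.0519), but passed with DESeq2 (adjusted p = 0.0183), limma-voom (0.0387), the replicate block (0.0311), both 12-library fits, the muscle covariate and without IAT replicate 1 (1.15, edgeR adjusted p = 0.0019).

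**Figure D2:**
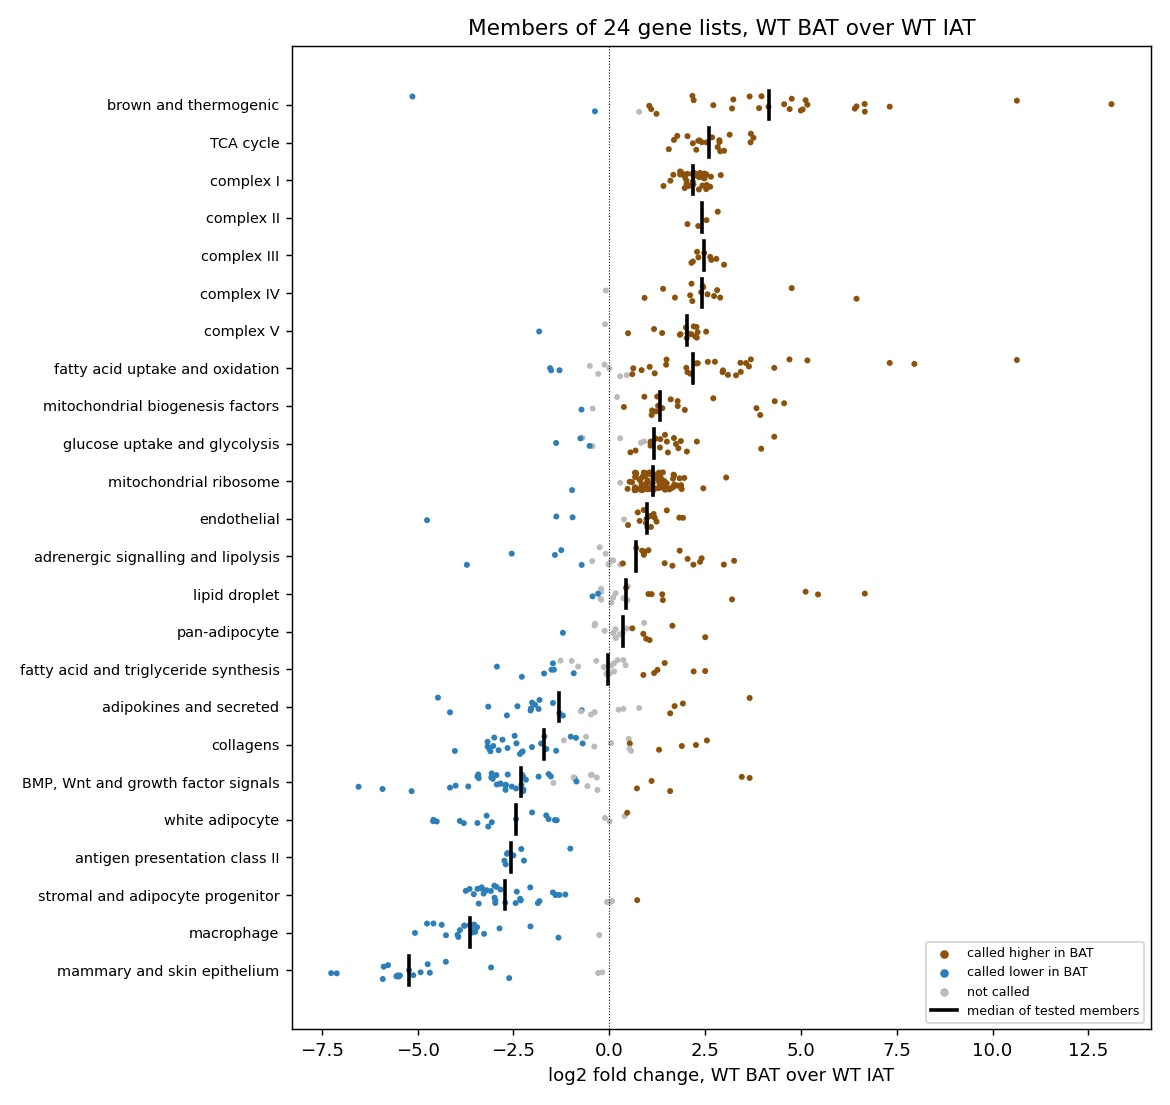
Each point is the log2 fold change (WT BAT over WT IAT, horizontal axis) of 1 tested member of 24 gene lists, brown where called higher in BAT, blue where called lower and grey where not called, with a black bar at the list's median. Medians run from 4.16 for brown and thermogenic genes to -5.22 for mammary and skin epithelium genes.

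Respiratory chain transcripts were higher in BAT almost without exception. Nuclear-encoded subunits of the 5 complexes took up 19.4%, 22.2% and 20.7% of TPM in the BAT libraries, against 6.41%, 5.39% and 4.96% in the IAT libraries. That is 20.8% ± 1.4 in BAT and 5.58% ± 0.744 in IAT (SD, n = 3 each), with no overlap. Of 82 tested subunits, 79 were higher in BAT, 1 was lower and 2 were not called, with a median log2 fold change of 2.21. The KO depots gave a median of 2.65 for the same subunits.

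The excess was similar from complex to complex. All 36 tested subunits of complex I, the NADH dehydrogenase, were higher in BAT, by 1.41 to 2.91 on the log2 scale with a median of 2.20. Ndufv1, its NADH-binding flavoprotein, was highest among them, with 1359, 1487 and 1317 CPM in BAT, against 219, 178 and 157 CPM in IAT. The 4 subunits of complex II had a median of 2.43 and the 9 of complex III one of 2.48, all higher in BAT. Sdhb, the iron-sulfur subunit of succinate dehydrogenase, differed by 2.83, and Uqcrc1, a core protein of complex III, by 3.00. Of 16 complex IV subunits 15 were higher, with a median of 2.42, and together they held 6.93% of TPM in BAT and 1.5% in IAT.

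Complex IV, cytochrome c oxidase, carries tissue isoforms of several small subunits, and here the isoforms differed to unequal degrees. Cox7a1, the heart and muscle form of subunit 7A, had 357, 406 and 300.5 CPM in BAT, against 3.72, 6.06 and 2.33 CPM in IAT. Its log2 fold change was 6.45 (SE 0.39, edgeR adjusted p = 0.000119), against 2.15 for Cox7a2, the widespread form. Cox7a1 made up 77.7%, 79.1% and 76.9% of the TPM of the pair in BAT, against 12.8%, 20.6% and 8.96% in IAT. Cox8b, the heart and muscle form of subunit 8, had 515, 525 and 419 CPM in BAT, against 23.96, 18.5 and 11.3 CPM in IAT (log2 fold change 4.76, SE 0.31, edgeR adjusted p = 0.000139). The log2 fold change of Cox8a, the widespread form, was 1.71. Cox8b held 62.9%, 63.8% and 60.6% of its pair in BAT, against 18.8%, 17.8% and 11.2% in IAT. No BAT and IAT library overlapped in either share.

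The heart and muscle form of subunit 6A behaved otherwise. Cox6a2 had 21.2, 0.0868 and 0.0865 CPM in BAT, against 5.03, 17.6 and 0.05301 CPM in IAT, and its log2 fold change of -0.09 did not pass (SE 1.86, edgeR adjusted p = 0.971). It was high in the 3 libraries rich in muscle transcripts and below 0.1 CPM in the rest. In BAT, Cox7a1 and Cox8b were highest in replicate 2, which had the lowest muscle sum, while in IAT both were lowest in replicate 3, the library poor in muscle transcripts, and Cox7a1 was highest in replicate 2, the richest. In the libraries low in muscle transcripts their log2 fold changes were 7.25 and 5.39.

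The promoters of both oxidase pairs are set side by side because the isoforms differ so widely between depots. They are RefSeq sequences of GRCm38.p6 from 250 bases before the start to 50 after it, read 5′ to 3′, with CCAAT (in either orientation) or TATAAA in capitals. Cox7a1 lies at chr7:30183921-30184220 on the plus strand, Cox7a2 at chr9:79759804-79760103 on the minus strand, Cox8b at chr7:140900397-140900696 on the minus strand and Cox8a at chr19:7217567-7217866 on the minus strand.
Cox7a1: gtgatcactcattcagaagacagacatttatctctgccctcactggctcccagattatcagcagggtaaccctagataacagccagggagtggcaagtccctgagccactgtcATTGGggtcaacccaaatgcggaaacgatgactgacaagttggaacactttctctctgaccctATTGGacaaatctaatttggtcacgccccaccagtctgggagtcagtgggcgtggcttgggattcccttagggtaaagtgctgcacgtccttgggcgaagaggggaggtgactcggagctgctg
Cox7a2: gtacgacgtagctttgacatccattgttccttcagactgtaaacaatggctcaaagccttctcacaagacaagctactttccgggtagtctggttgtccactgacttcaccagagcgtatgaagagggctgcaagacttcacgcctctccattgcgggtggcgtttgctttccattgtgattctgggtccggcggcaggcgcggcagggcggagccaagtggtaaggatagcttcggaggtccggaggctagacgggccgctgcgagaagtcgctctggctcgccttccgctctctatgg
Cox8b: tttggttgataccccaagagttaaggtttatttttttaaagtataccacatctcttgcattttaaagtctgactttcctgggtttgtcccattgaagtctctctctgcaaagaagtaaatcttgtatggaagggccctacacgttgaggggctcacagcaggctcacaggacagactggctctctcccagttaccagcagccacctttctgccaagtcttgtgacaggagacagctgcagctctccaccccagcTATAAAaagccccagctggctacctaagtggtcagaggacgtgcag
Cox8a: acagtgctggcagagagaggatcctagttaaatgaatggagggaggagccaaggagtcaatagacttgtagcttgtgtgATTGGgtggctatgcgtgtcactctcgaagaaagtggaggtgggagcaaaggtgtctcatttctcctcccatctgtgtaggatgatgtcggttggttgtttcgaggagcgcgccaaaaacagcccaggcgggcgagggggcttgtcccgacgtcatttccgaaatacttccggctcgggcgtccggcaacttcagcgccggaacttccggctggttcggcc
The depot-biased forms had fewer CpG dinucleotides than their widespread partners, 7 in Cox7a1 against 20 in Cox7a2 and 2 in Cox8b against 19 in Cox8a. Cox7a1 held CCAAT at 2 places, both read on the minus strand, Cox8b held TATAAA just after its annotated start, and Cox8a held CCAAT once on the minus strand. Cox7a2 held none of the 5 motifs.

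Those 5 motifs were searched on both strands in all promoters of the table and in the 72 promoters found for 67 of the tested subunits. AAGGTCA, the element bound by estrogen-related receptors, was in 11.1% of subunit promoters (8 of 72) and 4.72% of all 32851. The palindrome of the consensus site of NRF1, a regulator of respiratory genes, was in 6.94% (5 of 72) and 0.971%. TGACGTCA, the cyclic AMP response element, was in 5.56% (4 of 72) and 1.79%. TATAAA was in 11.1% and 13.6%, and CCAAT in 41.7% and 37.4%. The median CpG count was 19 in subunit promoters and 7 in all, and no set of promoters matched for CpG count or expression was searched. A match is a description of letters and not a bound site.

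Several other isoform pairs shifted in the same direction. Cpt1b, the muscle and brown fat form of the enzyme that admits fatty acids to mitochondria, had 1177, 1238 and 1109 CPM in BAT, against 9.09, 9.84 and 3.13 CPM in IAT (log2 fold change 7.32, SE 0.49, edgeR adjusted p = 0.000148). Cpt1a, the liver form, ran the other way with 20.02, 17.6 and 21.6 CPM in BAT, against 40.7, 60.2 and 71.9 CPM in IAT (log2 fold change -1.54, edgeR adjusted p = 0.00153). Cpt1b was 98.9%, 99.1% and 98.8% of the pair's TPM in BAT, against 25.6%, 20.1% and 6.27% in IAT. Among uncoupling proteins, Ucp1 was 97.2%, 97.8% and 96.2% of the sum of Ucp1 and Ucp2 in BAT and at most 0.663% in IAT. Plin5, a perilipin that tethers droplets to mitochondria, was 43.4%, 41.3% and 41.9% of its pair with Plin4 in BAT, against 1.73%, 1.19% and 1.60% in IAT. Of 13 pairs examined, 9 had a higher share of the first-named form in every BAT library, 1 had a lower share and 3 overlapped. The levels of single genes did not overlap at 68.7% of all genes tested, and the pairs were chosen with earlier results known. The count is therefore a description of these pairs only. The lower share was that of Cox4i2 beside Cox4i1, at a mean of 0.167% in BAT and 0.270% in IAT. With 3 libraries against 3, an exact two-sided permutation test cannot go below 0.1, so the shares carry no test.

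**Figure D3:**
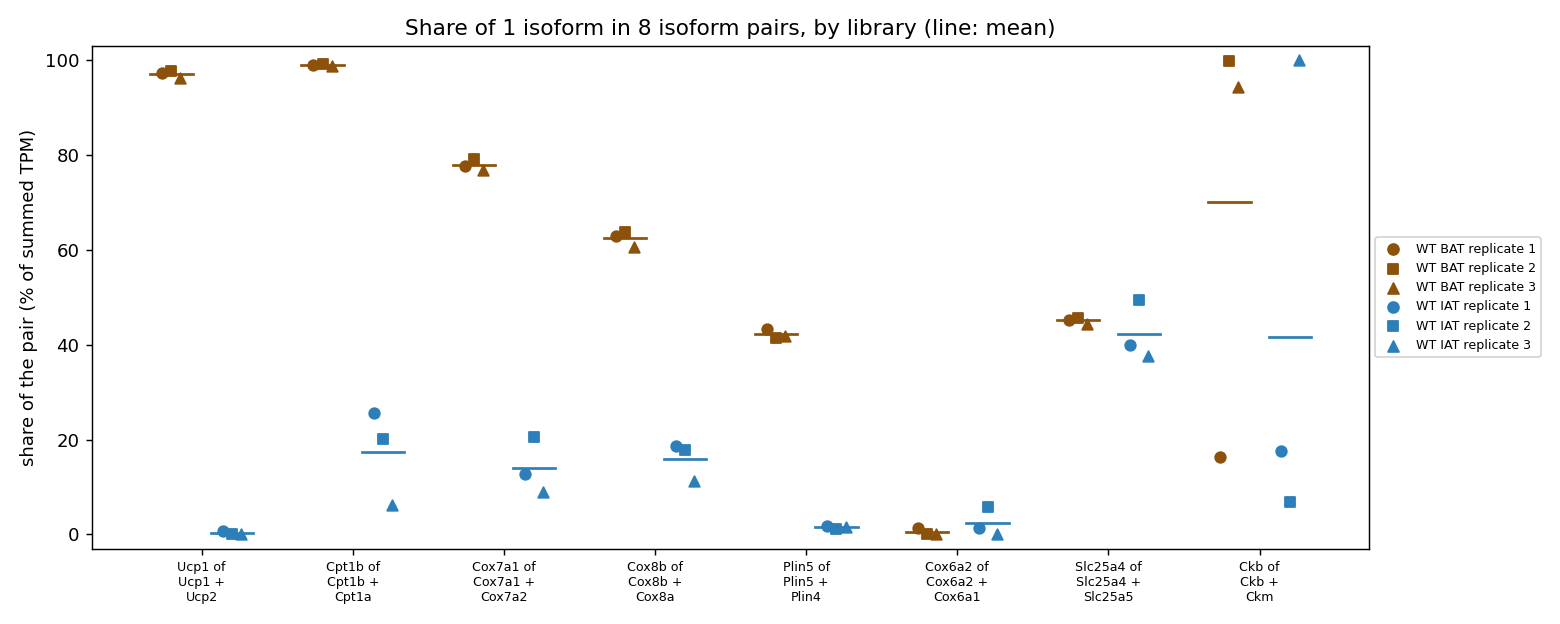
Share of the first-named isoform (% of the summed TPM of the pair, vertical axis) in 8 pairs, with WT BAT libraries in brown left of WT IAT libraries in blue and lines at group means. The first 5 pairs do not overlap between depots, while Cox6a2, Slc25a4 and Ckb, whose partner Ckm is a muscle gene, overlap.

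ATP synthase, complex V, held the 1 subunit that was lower in BAT. Of 17 tested subunits 15 were higher in BAT, with a median log2 fold change of 2.02. Atp5b, the catalytic beta subunit, had 8539, 8762 and 7638 CPM in BAT, against 2039.6, 1612 and 1467 CPM in IAT (log2 fold change 2.28, SE 0.20, edgeR adjusted p = 0.000296). The c subunit, which forms the proton-driven ring, is encoded by 3 genes whose mature products are the same, and in brown fat the Atp5g1 form is known to limit the amount of assembled ATP synthase. Atp5g1 had 19.9, 7.73 and 10.9 CPM in BAT, against 42.8, 44.6 and 49.6 CPM in IAT. It was the only subunit of the 5 complexes called lower in BAT (log2 fold change -1.83, SE 0.32, edgeR adjusted p = 0.00358), the depots did not overlap, and the KO depots gave -2.26.

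The other c-subunit genes differed from Atp5g1. Atp5g2 had 259, 253 and 193 CPM in BAT, against 106, 105 and 102.8 CPM in IAT (log2 fold change 1.17, edgeR adjusted p = 0.000773). Atp5g3 had 402, 403 and 360.3 CPM in BAT, against 482, 375 and 400.1 CPM in IAT and was not called (-0.11, edgeR adjusted p = 0.501). In TPM, which is corrected for length, Atp5g1 averaged 32.5 in BAT and 153 in IAT, Atp5g2 868 and 505, and Atp5g3 830 and 1691. On log2(TPM + 1) Atp5g3 was lower in BAT (-1.02, limma adjusted p = 0.000914), where the TMM-scaled CPM values did not differ beyond their spread. With library totals it was called lower from counts too (-0.35, edgeR adjusted p = 0.0286).

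**Figure D4:**
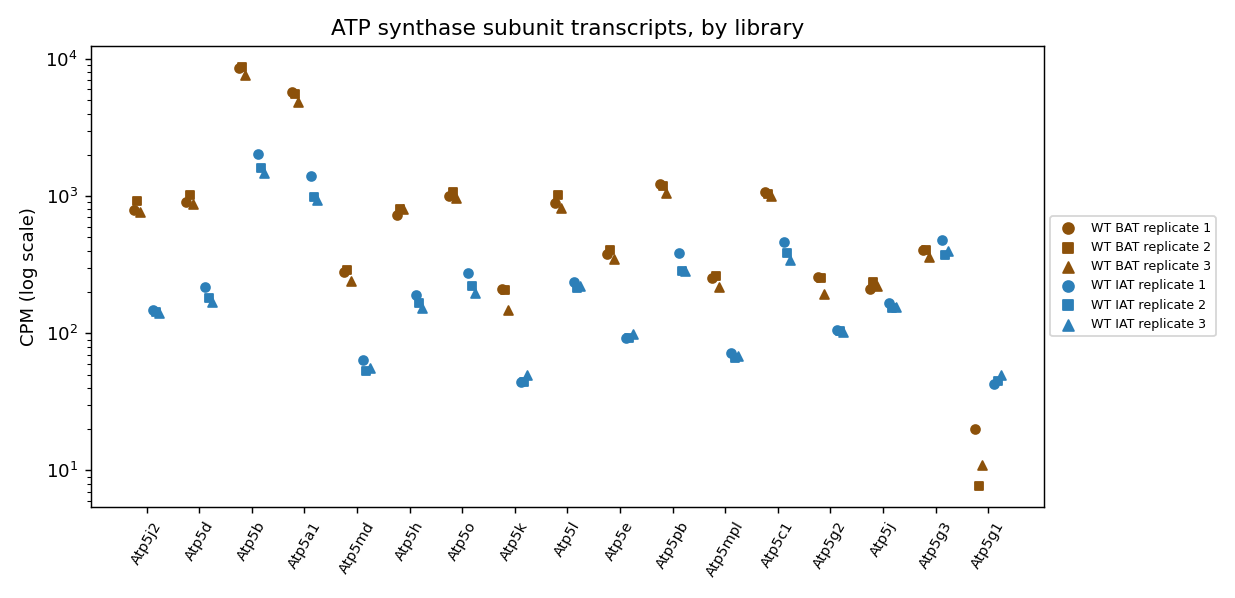
CPM (log axis) of the 17 tested ATP synthase subunits in each library, ordered by log2 fold change, with WT BAT libraries in brown left of WT IAT libraries in blue. BAT lies above IAT for 15 subunits, the depots overlap for Atp5g3, and Atp5g1 is lower in BAT at 7.73 to 19.9 CPM, against 42.8 to 49.6 CPM in IAT.

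Genes of the matrix enzymes that feed the chain were higher too. All 20 tested genes of the tricarboxylic acid cycle were higher in BAT, by 1.55 to 3.76 on the log2 scale with a median of 2.61, and they held 2.95% of TPM in BAT and 0.647% in IAT. Suclg1, a subunit of succinyl-CoA synthetase, was at the top of the range with 1382, 1362 and 1159.5 CPM in BAT, against 121, 86.5 and 80.3 CPM in IAT. Of 38 tested genes of fatty acid uptake and oxidation, 29 were higher in BAT and 3 were lower, with a median of 2.19. Acaa2, the thiolase of the last step of mitochondrial beta-oxidation, had 3823, 4412 and 3655 CPM in BAT, against 175, 141 and 141 CPM in IAT (log2 fold change 4.70, SE 0.19, edgeR adjusted p = 7.33e-05). The 3 lower members were Cpt1a, the uptake protein Slc27a1 (-1.30) and the binding protein Fabp5 (-1.52).

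Genes of mitochondrial ribosomal proteins were higher in BAT too. Of 77 tested, 75 were higher in BAT, 1 was lower and 1 was not called, with a median log2 fold change of 1.15, and the list held 1.18% of TPM in BAT and 0.661% in IAT. Mrps36 stood highest at 3.05, with 169, 202 and 176 CPM in BAT, against 22.8, 22.2 and 21.04 CPM in IAT. Its product is also known as a component of the 2-oxoglutarate dehydrogenase complex. Mrps6 alone was lower in BAT, with 34.02, 33.2 and 36.3 CPM in BAT, against 64.5, 56.2 and 81.9 CPM in IAT (log2 fold change -0.97, SE 0.15, edgeR adjusted p = 0.00206).

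Among 20 tested regulators of mitochondrial biogenesis and dynamics, 17 were higher in BAT and 1 was lower, with a median of 1.33. Esrrg, an estrogen-related receptor, had 39.96, 40.2 and 32.7 CPM in BAT, against 2.86, 1.67 and 0.265 CPM in IAT (log2 fold change 4.56, edgeR adjusted p = 0.0013), and 7.07 in the libraries low in muscle transcripts. Perm1, an effector of the same receptors, differed by 4.32, and the coactivator Ppargc1b by 3.94. Tfam, which packages mitochondrial DNA, differed by only 1.25 but with little spread, at 74.7, 78.1 and 71.4 CPM in BAT, against 31.6, 31.1 and 31.4 CPM in IAT. Pprc1, the third coactivator of the PGC-1 family, was lower in BAT (log2 fold change -0.72).

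Most glycolytic genes were higher in BAT as well. Of 28 tested genes of glucose uptake and glycolysis, 20 were higher and 3 lower, with a median of 1.16. Pdk4, which shuts pyruvate out of the cycle by phosphorylating pyruvate dehydrogenase, had 1509, 1223 and 1407 CPM in BAT, against 79.6, 63.4 and 66.5 CPM in IAT (log2 fold change 4.31, edgeR adjusted p = 7.33e-05). Ldhb, the lactate-oxidising subunit of lactate dehydrogenase, differed by 3.96, and Hk2, the insulin-responsive hexokinase, by 1.74. The glucose transporters Slc2a1 and Slc2a3 were lower in BAT, at -0.75 and -1.39. Slc2a3 lost its call without the 3 libraries rich in muscle transcripts (-1.64, edgeR adjusted p = 0.0994). The insulin-responsive transporter Slc2a4 had 848, 637 and 622 CPM in BAT, against 605, 285 and 232 CPM in IAT and did not pass (0.91, edgeR adjusted p = 0.0724), but passed with DESeq2 (adjusted p = 0.0233), the replicate block (0.0209) and without IAT replicate 1 (1.43, edgeR adjusted p = 0.00122).

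Synthesis of fatty acids and triglyceride did not separate the depots as a group. Of 27 tested genes, 6 were higher in BAT, 7 were lower and 14 were not called, with a median of -0.03, against 5 higher and 10 lower on log2(TPM + 1). Gpd1, which makes glycerol 3-phosphate, had 11412, 9592 and 8665 CPM in BAT, against 2599, 1480.04 and 1154 CPM in IAT (log2 fold change 2.50, SE 0.35, edgeR adjusted p = 0.00149). Fasn, fatty acid synthase, was not called (0.13, edgeR adjusted p = 0.802). The desaturase genes Fads1 and Fads3 were lower in BAT, at -2.28 and -2.93. Elovl3, an elongase induced in cold brown fat, was higher by 2.20 (edgeR adjusted p = 0.0355), but its call was lost when any 1 BAT library or IAT replicate 3 was left out, with values of 1.88 to 2.41. Without the libraries rich in muscle transcripts, 9 of the genes were higher in BAT and 7 lower.

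Genes of lipid droplet proteins differed from member to member. Of 21 tested, 9 were higher in BAT and 2 were lower, with a median of 0.44 that was 0.01 on log2(TPM + 1), where 8 were higher and 5 lower. Cidea, a droplet fusion protein and brown fat marker, had 2646, 3095 and 2388 CPM in BAT, against 52.4, 20.3 and 7.26 CPM in IAT (log2 fold change 6.67, SE 0.79, edgeR adjusted p = 0.000846). Its relative Cideb was higher by 5.45, and Plin5 by 5.12 with 217, 195 and 241 CPM in BAT, against 6.98, 4.64 and 7.103 CPM in IAT. Clstn3, whose brown adipocyte form limits droplet fusion, was higher by 3.20. Cidec, the fusion protein of white droplets, was not called, with 1435, 1634 and 1626 CPM in BAT, against 1522, 1401 and 1264 CPM in IAT (log2 fold change 0.17, edgeR adjusted p = 0.328). The 2 lower genes, Hsd17b11 (-0.29) and Plin4 (-0.44), lost their call when any 1 library other than IAT replicate 1 was left out, with edgeR adjusted p of up to 0.132.

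Among receptors and enzymes that carry the noradrenaline signal, some differed between depots and others did not pass. Of 27 tested adrenergic and lipolysis genes, 15 were higher in BAT and 5 were lower, against 13 and 7 with library totals, with a median of 0.71. Adrb3, the beta-3 receptor of rodent fat, was not called by edgeR, with 172, 172 and 209.96 CPM in BAT, against 265, 222 and 171 CPM in IAT (log2 fold change -0.25, SE 0.18, edgeR adjusted p = 0.268), but it was called lower in BAT with library totals (-0.49, edgeR adjusted p = 0.0486) and on log2(TPM + 1) (-0.64, limma adjusted p = 0.0199). Adra1a, an alpha-1 receptor that signals through calcium, had 183, 216 and 276 CPM in BAT, against 23.5, 28.1 and 33.3 CPM in IAT (log2 fold change 2.99, edgeR adjusted p = 0.000155). Adrb1 was higher by 2.37 (edgeR adjusted p = 0.00255). The inhibitory receptor Adra2a was lower (log2 fold change -3.71), at 0.175, 0 and 0.173 CPM in BAT, against 1.72, 1.62 and 1.54 CPM in IAT.

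Downstream, adenylyl cyclase genes differed in opposite directions. Gnas, the stimulatory G protein, had 3168, 3810.2 and 3155 CPM in BAT, against 769, 733 and 710.1 CPM in IAT (log2 fold change 2.20). Adcy3, the cyclase of brown fat, had 134, 204 and 151 CPM in BAT, against 34.03, 31.2 and 26.6 CPM in IAT (log2 fold change 2.41, edgeR adjusted p = 0.000208), while Adcy5 was lower with 5.07, 6.42 and 14.2 CPM in BAT, against 26.1, 57.1 and 66.7 CPM in IAT (log2 fold change -2.54, edgeR adjusted p = 0.00512). In both the depots did not overlap. Pde4d, which degrades cyclic AMP, was higher in BAT by 3.26. Of the lipases, Pnpla2 (ATGL) was higher by 1.02 (edgeR adjusted p = 0.00416), and Lipe, hormone-sensitive lipase, was not called (0.29, edgeR adjusted p = 0.338), but passed without IAT replicate 1 (0.56, edgeR adjusted p = 0.0143) and without the 3 libraries rich in muscle transcripts (0.53, edgeR adjusted p = 0.0304).

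White adipocyte genes were lower in BAT. Of 19 tested, 15 were lower, 1 was higher and 3 were not called, with a median of -2.43. Lep, the leptin gene, had 140.4, 102 and 123.4 CPM in BAT, against 592, 399 and 484 CPM in IAT (log2 fold change -2.01, SE 0.19, edgeR adjusted p = 0.000411). Retn, which encodes resistin, had 192, 77.8 and 139.7 CPM in BAT, against 1458, 1024 and 1174 CPM in IAT (log2 fold change -3.16, edgeR adjusted p = 0.000708). Neither gene overlapped between depots, and both were still well expressed in BAT. Nnat, neuronatin, had 7.43, 2.43 and 12.98 CPM in BAT, against 102, 254 and 162 CPM in IAT (log2 fold change -4.50). Rb1 was the 1 higher member (0.47, edgeR adjusted p = 0.0293), and its call was lost without BAT replicate 1 or 3 or IAT replicate 2 or 3, with values of 0.38 to 0.45, and on log2(TPM + 1) (0.05). The list also holds Fbn1, Ccn5 and Trem2, which stromal cells or macrophages express too, and those cell types' markers differed as well (below).

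Of 25 tested adipokines and other secreted factors, 15 were lower in BAT and 4 were higher, with a median of -1.30. The higher ones included Nampt, with 1148, 1182 and 1121 CPM in BAT, against 326, 274 and 310.3 CPM in IAT (log2 fold change 1.92, edgeR adjusted p = 0.000128), an enzyme of NAD synthesis that is also secreted. Angptl4, an inhibitor of lipoprotein lipase, was higher by 1.71 and Vegfa, the endothelial growth factor, by 1.59. Bmp8b, a signal of brown fat, was higher by 3.66 at low level, with 2.62, 2.43 and 5.28 CPM in BAT, against 0, 0.252 and 0.5301 CPM in IAT, and lost its call without the 3 libraries rich in muscle transcripts (2.86, edgeR adjusted p = 0.0589). Inhbb, an activin subunit, had 2.36, 1.74 and 2.94 CPM in BAT, against 51.6, 43.8 and 30.4 CPM in IAT (log2 fold change -4.15, edgeR adjusted p = 0.000148), and Lcn2, lipocalin 2, was lower too (-4.47).

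Hox genes, which record position along the body axis, split by their place in the cluster. Low paralogue numbers stand for anterior and high numbers for posterior genes. Of 18 tested genes of groups 1 to 7, 9 were higher in BAT, 5 were lower and 4 were not called, with a median log2 fold change of 0.29. Hoxb3 and Hoxb4 lost their calls on log2(TPM + 1) (0.09 and 0.29, limma adjusted p = 0.594 and 0.151). They also lost them with library totals (0.27 and 0.49, edgeR adjusted p = 0.22 and 0.0537), which left 7 Hox genes higher in BAT under either scaling. Of 9 tested genes of groups 8 to 13, 0 were higher and 9 were lower, with a median of -2.92. Hoxa5 had 39.3, 40.7 and 37.6 CPM in BAT, against 5.55, 3.28 and 4.29 CPM in IAT (log2 fold change 3.17, SE 0.19, edgeR adjusted p = 0.000126). Hoxa4 had 18.7, 18.8 and 20.1 CPM in BAT, against 3.49, 3.18 and 2.92 CPM in IAT (log2 fold change 2.58, edgeR adjusted p = 0.000103). Both anterior genes were several times higher in every BAT library.

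The posterior genes included several with no read in BAT. Hoxc8 had 1.75, 4.34 and 2.42 CPM in BAT, against 44.7, 37.4 and 36.3 CPM in IAT (log2 fold change -3.79, SE 0.31, edgeR adjusted p = 0.00024). Hoxc10 (gene 209448, GRCm38.p6 chromosome 15, 102966796 to 102971898) had 0 counts in BAT and 898 in IAT, so it was at least 184-fold lower in BAT, with the 0 set at a floor of 3 counts over the depot. Hoxc9, with 0 counts in BAT and 546 in IAT, was at least 112-fold lower, and Hoxa10, with 0 and 363, at least 74.4-fold lower. These limits cover counting error only. Hoxb3, Hoxc6, Hoxd3, Hoxd4 and Hoxd8 lost their calls when 1 library was left out, without BAT replicate 3 for Hoxc6 (edgeR adjusted p = 0.0571), BAT replicate 2 for Hoxd8 (0.0587) and any of several libraries for the rest (at most 0.0969). Without the 3 libraries rich in muscle transcripts Hoxc6 was -0.29 (edgeR adjusted p = 0.287), and Hoxd4 (0.148) and Hoxd8 (0.0737) also lost their calls.

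**Figure D5:**
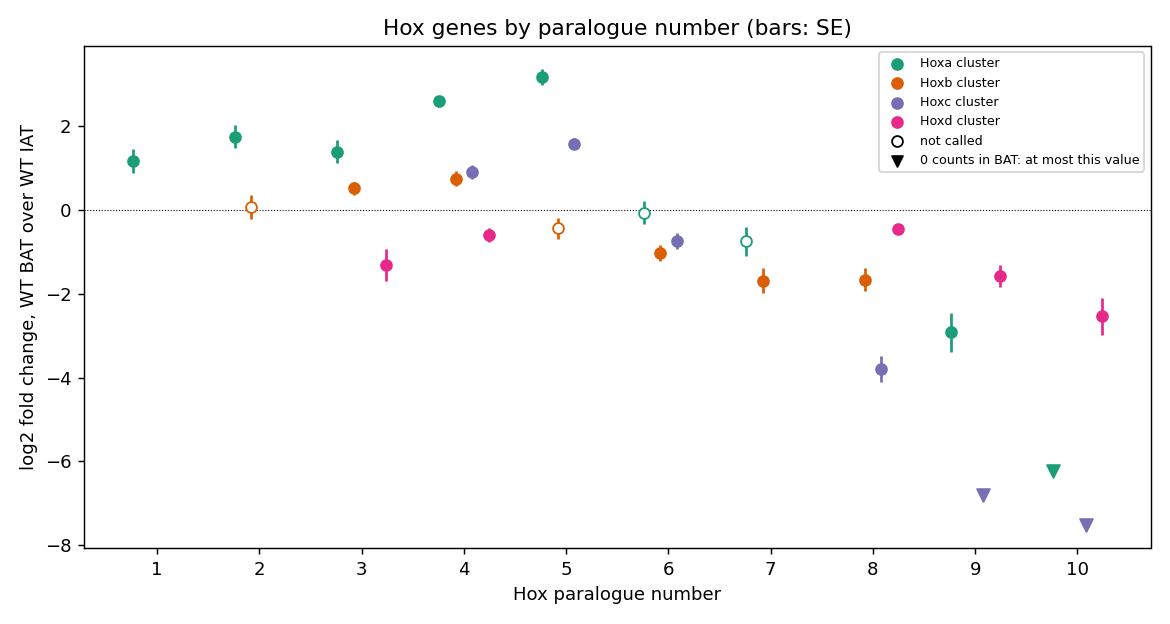
Log2 fold change (WT BAT over WT IAT, bars show SE) of 27 tested Hox genes by paralogue number, coloured by cluster, with open symbols where not called and triangles at the largest value that 0 counts in BAT allow. Genes of groups 1 to 5 of the Hoxa cluster lie above 0, and all 9 genes of groups 8 to 10 lie below 0.

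Other patterning factors differed in both directions. Of 26 tested, 7 were higher in BAT (26.9%, near the 28.2% of all genes). A further 12 were lower (46.2%, against 30.6% of all genes), and the median was -0.60. On log2(TPM + 1), 4 were higher and 16 lower, where 1911 and 6575 of all 12701 genes were. Zic1, a zinc finger factor of dorsal mesoderm and a known brown fat marker (chromosome 9, 91358058 to 91365768), had 18.3, 17.5 and 20.7 CPM in BAT, against 0.114, 0 and 0 CPM in IAT. With 650 counts in BAT and 2 in IAT it was 529-fold higher in BAT, with a 95% counting interval of 146 to 4376. Emx2 had 3 counts in BAT and 390 in IAT and was 79.9-fold lower in BAT, with an interval of 27.1 to 389. The homeobox genes Irx1 and Irx2 were lower in BAT (log2 fold changes -3.54 and -4.34), as was Shox2 (-3.48), which lost its call without the 3 libraries rich in muscle transcripts (-2.05, edgeR adjusted p = 0.0531). Lhx8, a reported brown fat marker, was higher by 1.33 (edgeR adjusted p = 0.00889), but the call was lost without the 3 libraries rich in muscle transcripts (1.24, edgeR adjusted p = 0.0915) and in 1 fit of the 12 WT libraries of 4 tissues (0.186), and the KO depots gave -0.54 (edgeR adjusted p = 0.461).

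Secreted signals of the BMP, Wnt and growth factor families were mostly lower in BAT, at 33 of 45 tested against 5 higher, with a median of -2.29. Wnt4 had 0.175, 0.2604 and 0.0865 CPM in BAT, against 26.02, 14.99 and 9.81 CPM in IAT (log2 fold change -6.54, SE 0.57, edgeR adjusted p = 0.000288). The Wnt antagonist Sfrp4 had 3.15, 1.04 and 0.433 CPM in BAT, against 34.1, 127 and 119 CPM in IAT (log2 fold change -5.91). Gdf5, a BMP-family ligand, went against the group with 14.6, 15.4 and 13.7 CPM in BAT, against 2.06, 0.959 and 0.954 CPM in IAT (log2 fold change 3.46, edgeR adjusted p = 0.000404). Epithelial, stromal and macrophage markers, given next, differed in the same direction as most of these signals, and their part in the result was not tested.

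Stromal and adipocyte progenitor markers were lower in BAT at 29 of 33 tested genes, higher at 1 and not called at 3, with a median of -2.71. Their summed level was 3220, 2172 and 2412 CPM in the BAT libraries, against 7842, 12380 and 13260 CPM in the IAT libraries. Pdgfra, the receptor that marks adipocyte progenitors, had 41.2, 24.4 and 26.6 CPM in BAT, against 102, 169 and 229.7 CPM in IAT (log2 fold change -2.44, edgeR adjusted p = 0.0016). Dpp4, a marker of interstitial progenitors, had 23.3, 3.99 and 4.24 CPM in BAT, against 62.6, 181 and 178 CPM in IAT (log2 fold change -3.74, SE 0.81, edgeR adjusted p = 0.00769). BAT replicate 1, rich in muscle transcripts, was the highest of the BAT libraries for both. Pdgfrb, of mural cells and fibroblasts, was not called (0.00), but on log2(TPM + 1) it was lower in BAT (-0.41, limma adjusted p = 0.0215). F3 was the 1 higher gene (0.73), and its call was lost without BAT replicate 1 (0.45), IAT replicate 2 (0.63) or IAT replicate 3 (0.69), and on log2(TPM + 1) (0.27).

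Collagens were lower at 23 of 35 tested genes and higher at 5, with a median of -1.69. Col1a1, of the main fibrillar collagen, had 128, 69.97 and 97.97 CPM in BAT, against 519.8, 958 and 1197 CPM in IAT (log2 fold change -3.17, SE 0.38, edgeR adjusted p = 0.000848). Col27a1 was higher in BAT with 50.3, 79.6 and 57.99 CPM in BAT, against 8.41, 11.2 and 12.5 CPM in IAT (log2 fold change 2.55, edgeR adjusted p = 0.000299), and Col12a1 was higher by 2.26.

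Macrophage genes showed the widest gap among immune lists. Of 21 tested, 20 were lower in BAT and 1, Cx3cr1, was not called (-0.26), with a median of -3.64. Summed, they reached 638, 221 and 263 CPM in BAT, against 1887, 5101 and 6904 CPM in IAT. C1qa, a complement component made by macrophages, had 54.7, 16.6 and 21.1 CPM in BAT, against 136, 466 and 669.9 CPM in IAT (log2 fold change -3.78, SE 0.73, edgeR adjusted p = 0.00498). The lowest ratios were those of receptors of resident macrophages, with Cd209f at 13.3, 2.43 and 4.24 CPM in BAT, against 60.5, 237 and 373 CPM in IAT (log2 fold change -5.07) and Lyve1 at 17.1, 3.65 and 6.58 CPM in BAT, against 65.3, 195 and 476 CPM in IAT (log2 fold change -4.75). IAT replicate 1 was the lowest IAT library for each of the 3 genes and BAT replicate 1 the highest BAT library. All 8 tested genes of class II antigen presentation were lower in BAT, with a median of -2.57 and Cd74, the invariant chain, at -2.67.

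Lymphocyte genes were low in both WT depots. Of 13 tested, 0 were called by edgeR, DESeq2 or limma-voom and 2 had an unadjusted p below 0.05 in edgeR, with a median of -0.30. With library totals 2 were lower in BAT, and 1 on log2(TPM + 1). Cd79b was lower with the replicate block (-1.13, edgeR adjusted p = 0.0498) and without BAT replicate 2 (-1.48, 0.0476) or IAT replicate 1 (-1.38, 0.0265). In 1 fit of the 12 WT libraries of 4 tissues Cd79b was lower (-1.13, edgeR adjusted p = 0.0411) and Fcer2a higher (0.83, 0.0287). The list summed to 13.1, 11.6 and 12.4 CPM in BAT, against 14.6, 22.0 and 11.4 CPM in IAT. The KO depots differed in these sums: KO IAT replicates 1 and 3 reached 2905 and 1551 CPM while KO BAT libraries had at most 10.1 CPM.

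Epithelial genes were far lower in BAT. Of 19 tested markers of mammary and skin epithelium, 17 were lower in BAT and 2 were not called, with a median of -5.22. Krt18, a keratin of glandular epithelium, had 0, 6.08 and 0.779 CPM in BAT, against 177, 145 and 91.6 CPM in IAT (log2 fold change -5.91, SE 0.99, edgeR adjusted p = 0.00296). Csn3, a milk casein, had 0, 0.434 and 0 CPM in BAT, against 17.6, 22.2 and 23.7 CPM in IAT. Its log2 fold change of -7.11 rests on the few counts of BAT replicate 2, without which it was -11.39. Ltf, lactoferrin, had 0, 0.521 and 0.0865 CPM in BAT, against 37.7, 31.9 and 27.2 CPM in IAT (log2 fold change -7.26, edgeR adjusted p = 0.000209). BAT replicate 2 had the highest level of all 3 genes among the BAT libraries. Kit and Esr1, which other cells also express, were not called by edgeR (-0.18 and -0.29), but both were called lower in BAT on log2(TPM + 1) (-0.56 and -0.68, limma adjusted p = 0.017 and 0.0384), Kit with library totals (edgeR adjusted p = 0.0393) and Esr1 with the replicate block (0.0427).

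Glandular genes also stood among the genes with the lowest BAT to IAT ratio. The 15 largest such differences outside the muscle, epithelial, lymphocyte and red cell lists ran from Dmbt1 (-7.42) to Aqp5 (-5.73). They included Prom2 (-6.79), Wfdc2 (-6.74), Cldn4 (-6.03) and Slc5a5 (-6.74), which are known from glandular epithelium. Dmbt1 had 0, 1.65 and 0 CPM in BAT, against 116, 132 and 38.6 CPM in IAT. For Dmbt1, Cldn4 and Fcgbp (-7.25) the fitted values rest on BAT replicate 2, without which they were -13.56, -11.40 and -11.52. Epithelial markers moved with these genes, and their part in each was not tested.

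Hormone-linked genes stood among them too. Pgr, the progesterone receptor, had 0.175, 0.868 and 0 CPM in BAT, against 13.2, 35.99 and 40.5 CPM in IAT (log2 fold change -6.39, SE 0.83, edgeR adjusted p = 0.00122). Greb1, an estrogen-induced gene, had 0.437, 0 and 0.173 CPM in BAT, against 1.43, 22.9 and 61.8 CPM in IAT (log2 fold change -7.09, SE 1.65, edgeR adjusted p = 0.0102), and its IAT libraries differed widely among themselves. Limma-voom did not call Greb1 (adjusted p = 0.283). Both genes were named by a rule that required no overlap between the depots, so their lack of overlap is no further support. Alb, the albumin gene, was lower in BAT with 0.874, 0 and 0.606 CPM in BAT, against 69.5, 50.4 and 40.6 CPM in IAT (log2 fold change -6.74). So was Mup7 (-5.99), for which reads may come from near-identical Mup copies.

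More vessel genes were higher than lower in BAT. Of 19 tested endothelial genes, 15 were higher and 3 were lower, with a median of 0.97, against 8 and 3 with a median of 0.52 on log2(TPM + 1) and 10 and 3 with library totals. Their sums were 1172, 1637 and 1706 CPM in BAT, against 954, 903 and 1160 CPM in IAT. Flt1, a VEGF receptor, had 134, 191 and 208 CPM in BAT, against 60.9, 40.8 and 38.6 CPM in IAT (log2 fold change 1.92, SE 0.24, edgeR adjusted p = 0.00106). Vwf, von Willebrand factor of larger vessels, was lower with 12.9, 12.7 and 13.6 CPM in BAT, against 35.5, 30.9 and 35.5 CPM in IAT (log2 fold change -1.38, edgeR adjusted p = 0.000168), as was Nos3 (-0.96). The third lower member, Lyve1, is shared with the macrophage list. Rgs5, a pericyte gene, had 482, 613 and 620.3 CPM in BAT, against 136, 90.2 and 71.7 CPM in IAT (log2 fold change 2.52).

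Of 14 tested Schwann cell and nerve genes, 8 were lower in BAT and 2 were higher, with a median of -1.73. Sox10, the transcription factor that defines the lineage, was lower (log2 fold change -2.63). S100b went the other way with 91.99, 98.6 and 73.3 CPM in BAT, against 2.802, 7.93 and 5.99 CPM in IAT (log2 fold change 3.97, SE 0.36, edgeR adjusted p = 0.000342). It is a glial marker that brown adipocytes also express, and was counted in the brown list as well.

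Prxl2a itself, the gene knocked out elsewhere in the series, had 526, 557 and 555 CPM in BAT, against 441, 298 and 285 CPM in IAT. Its log2 fold change of 0.68 passed (SE 0.19, edgeR adjusted p = 0.019), but the call was lost without BAT replicate 2 (0.67), BAT replicate 3 (0.68), IAT replicate 2 (0.58) or IAT replicate 3 (0.56), and on log2(TPM + 1) (0.28). The BAT libraries did not overlap the IAT libraries.

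The depot differences were largely shared by mice lacking Prxl2a. Between 3 KO BAT and 3 KO IAT libraries, 7119 of 13658 genes tested were called, which is 52.1%, with BAT higher at 22.4% and lower at 29.7%. Of 13435 genes tested in both genotypes, 5904 were called in the same direction in both, which is 74.2% of 7955 WT calls and 84.7% of 6969 KO calls, and 7 were called in opposite directions. In 1 edgeR fit of the 12 adipose libraries, 0 of 14271 genes had a depot difference that changed with genotype at an adjusted p below 0.05, with a smallest adjusted p of 0.297 and 1713 genes below an unadjusted 0.05. With 3 libraries per group such a fit can miss changes, so the lack of calls does not show that the depot differences were equal. In the KO depots 27 of 29 brown and thermogenic genes were higher in BAT, with a median of 4.71, and 14 of 19 white adipocyte genes were lower, with a median of -2.77.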

How the data were processed

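Whole-tissue messenger RNA was measured in 6 WT fat libraries, with the 6 KO fat libraries beside them. Per the file headers, the authors deposited expected counts, which are estimated reads per gene and not normalised, and TPM values, which are scaled within each library. The submitters' processing notes name RSEM 1.3.1, Bowtie2 2.3.4.3 and GRCm38.p6, and also DESeq2 1.4.5. No source used here gives the annotation, the strandedness or any filter. A further 48 columns with a value per sample were left aside.

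The counts were rounded to whole numbers and tested with edgeR 4.0.16 in R 4.3.3 on the 6 WT libraries: TMM factors, the filterByExpr filter, the quasi-likelihood F-test, and Benjamini-Hochberg adjustment over all genes with calls below 0.05. Standard errors come from the F statistic. Fold changes are BAT over IAT on the log2 scale. Floors use 3 counts, and intervals cover counting error only. Of 19015 genes, 18958 matched the GRCm38.p6 annotation used for coordinates. Promoters are RefSeq sequences.

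The 39 gene lists and 13 isoform pairs, and the comparison itself, were chosen with earlier results of these data known. Lists are described by counts and medians without a test of their own. Named genes are the isoform pairs, the Hox genes, Prxl2a, adipocyte markers, the muscle list, up to 3 called genes per direction and list with at least 5 CPM, and the 15 largest differences per direction with at least 20 CPM, no overlap and the same sign in libraries low in muscle transcripts. Further list members that complete a family or pathway step were named after their values were seen. Some genes that meet the rule are not reported here.

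Alternatives were RLE, upper-quartile and library-total scaling, no filter or 1 CPM in 3 libraries, DESeq2 1.42.0, limma-voom (limma 3.58.1), limma-trend on TPM as log2(TPM + 1) or, with the smaller pseudocount, log2(TPM + 0.1), 12 libraries in 1 fit, a 2-fold limit, a replicate block, a muscle covariate, and leaving out libraries. The edgeR steps were tested on simulated data.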

Additional observations from a re-analysis of the deposited data

How the results depend on the processing

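The number of genes called between the WT depots was 8085. It was 8042 with DESeq2, 7848 with limma-voom, 7604 with the muscle level as a covariate and 7620 without the 3 libraries rich in muscle transcripts, and 6527 to 8522 when 1 library was left out. Of the 8085 calls, 7441 were kept with the covariate and 6606 without those 3 libraries, a fit that leaves 1 IAT library. Requiring a 2-fold difference gave 4304 calls, 1584 higher and 2720 lower in BAT. The direction split depended on scaling: library totals gave 2546 genes higher in BAT, and log2(TPM + 1) and log2(TPM + 0.1) gave 1911 and 1911 higher against 6575 and 6592 lower, where the main values were 3876 and 4209. Leaving out 1 library gave 3157 to 4013 higher, 3355 to 4509 lower, and 4970 to 9108 calls between the KO depots against 7119.

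Of 278 genes followed by name, edgeR without 1 library lost the call of between 3 and 17, depending on the library, and log2(TPM + 1) that of 13 among the 270 tested there. Elovl6, not called at -0.07, ranged from -0.40 without IAT replicate 2 to 0.74 without IAT replicate 1, and was 0.40 without the 3 libraries rich in muscle transcripts. Lrrc8a, 0.31 in edgeR, was -0.11 on log2(TPM + 1) and -0.12 on log2(TPM + 0.1), and Pdgfrb, near 0 in edgeR, was -0.41 and -0.43. The causes were not tested.

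BAT and IAT libraries share replicate numbers, but the labels do not say that a number marks 1 mouse. Deviations of same-numbered libraries correlated at -0.05, -0.39 and 0.31 across genes. Those of differently numbered libraries ran from -0.43 to 0.56, the latter for BAT replicate 1 and IAT replicate 2, both rich in muscle transcripts. With the replicate number as a block, 7321 genes were called, 3536 higher and 3785 lower in BAT, and 6143 between the KO depots. With 3 libraries per depot, genes near the filter and differences below the scaling shifts are the least certain.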

Other observations

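Transporters of the inner mitochondrial membrane were higher in BAT in some cases and lower in others. Of 40 tested carriers of the Slc25 family, 23 were higher in BAT, 6 were lower and 11 were not called, with a median log2 fold change of 0.77, against 20 higher and 12 lower on log2(TPM + 1). Slc25a42, which imports coenzyme A, had 229.5, 312 and 411 CPM in BAT, against 18.2, 22.4 and 25.6 CPM in IAT (log2 fold change 3.84, SE 0.26, edgeR adjusted p = 0.000151). Slc25a20, the carnitine and acylcarnitine exchanger, had 863, 984 and 848 CPM in BAT, against 97.7, 80.01 and 72.1 CPM in IAT (log2 fold change 3.43). Slc25a10, the dicarboxylate carrier, was lower in BAT, with 102.8, 48.2 and 90.7 CPM in BAT, against 841, 509 and 475 CPM in IAT (log2 fold change -2.92, edgeR adjusted p = 0.00102). Of 35 tested redox enzymes, 19 were higher and 6 lower, with a median of 0.46, against 11 and 12 with a median of 0.05 on log2(TPM + 1). Sod2 and Prdx3, the mitochondrial superoxide dismutase and peroxiredoxin, were higher by 2.54 and 1.75, while the glutathione transferase Gsta3 and the heme oxygenase Hmox1 were lower (-3.27 and -2.64). Nnt, the inner-membrane transhydrogenase, was lower in BAT with 8.57, 4.95 and 4.07 CPM in BAT, against 16.1, 19.03 and 22.3 CPM in IAT (log2 fold change -1.71, edgeR adjusted p = 0.00331).

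Channels, retinoid genes and receptors split in both directions. Of 13 tested ion channels of fat, 3 were higher and 9 lower, with a median of -0.80, against 1 and 10 on log2(TPM + 1). The potassium channel Kcnk3 had 390.3, 398 and 354 CPM in BAT, against 65.9, 28.4 and 26.9 CPM in IAT (log2 fold change 3.24), and its relative Kcnk1 had 0.437, 0.2604 and 0.346 CPM in BAT, against 9.44, 10.1 and 9.81 CPM in IAT (log2 fold change -4.78). Of 24 thyroid and retinoid genes, 8 were higher and 11 lower, with a median of -0.35. The receptor Rarb was higher by 2.90, and Aldh1a2, which makes retinoic acid, was lower (-4.03). Of 38 nuclear receptors, 15 were higher and 7 lower, with a median of 0.40, against 11 and 11 on log2(TPM + 1). Of 18 clock genes, 7 were higher and 2 lower, with a median of 0.48, against 2 and 4 with a median of 0.11 on log2(TPM + 1). Bhlhe41, a repressor of the clock, was lower, with 16.1, 18.5 and 16.01 CPM in BAT, against 65.5, 43.7 and 32.8 CPM in IAT (log2 fold change -1.49, edgeR adjusted p = 0.00309), and its log2 fold change was -0.91 in the libraries low in muscle transcripts.

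Of 11 creatine and calcium cycling genes, 4 were higher and 4 lower, with a median of 0.49 that was -0.55 on log2(TPM + 1). Pm20d1, which makes N-acyl amino acids, had 66.4, 61.98 and 51.3 CPM in BAT, against 11.3, 6.16 and 7.05 CPM in IAT (log2 fold change 2.88). Of 23 immediate early genes, 2 were higher and 5 lower, with a median of -0.14, against 1 and 9 on log2(TPM + 1). Of 10 smooth muscle and pericyte genes, 4 were higher and 2 lower, with a median of 0.37, against 2 and 3 with a median of -0.11 on log2(TPM + 1). Of 6 red cell genes, 0 were called by edgeR, DESeq2 or limma-voom and 0 had an unadjusted p below 0.05 in edgeR, with a median of 0.96. Their sums were 236, 562 and 1065 CPM in BAT, against 503, 218 and 238 CPM in IAT. Without BAT replicate 1, the globin gene Hba-a1 was called higher in BAT (1.35, edgeR adjusted p = 0.0495). The 7 genes called in opposite directions in WT and KO depots were Mamdc2, Gpr157, Rundc3b, Gprc5c, Fam107b and 2 predicted loci, named after their values were seen. Gprc5c had a log2 fold change of -0.67 between the WT depots (edgeR adjusted p = 0.00989) and 1.42 between the KO depots (edgeR adjusted p = 0.00661), while no gene had a depot difference called as changing with genotype.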
